A study of Mus musculus with 32 samples.

Results

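The genes described here are 10 members of the integrated stress response: Atf4, Atf3, Ddit3, Trib3, Chac1, Asns, Psat1, Fgf21, Nupr1 and Sesn2. They were taken by symbol, matched through the GENCODE vM21 annotation to the Ensembl identifiers of a mouse liver RNA-seq count table, and make up 10 of its 52636 genes. The integrated stress response begins when kinases that sense unfolded protein in the endoplasmic reticulum, amino acid shortage, viral RNA or haem shortage phosphorylate the translation factor eIF2 alpha. General protein synthesis then slows while the mRNA of the transcription factor ATF4 is translated more, and ATF4, with the partners it induces, switches on genes of amino acid supply, redox balance and, when stress lasts, cell death. In the liver this pathway is known from amino acid deprivation, endoplasmic reticulum stress, mitochondrial dysfunction and toxic injury, and its output includes the circulating hormone FGF21.

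The series crosses genotype, thyroid hormone and toxic injury in 8 groups of 4 mice, with 1 liver library per mouse (32 in all). KO mice are labelled as lacking thyroid hormone receptor beta (gene Thrb) and are set against WT mice. All groups, controls included, were on the PTU/LID diet, a low-iodine diet with propylthiouracil, which blocks thyroid hormone synthesis. T3 groups received the active hormone T3 at 1 µg/ml in drinking water in the last week, and PBS groups served as their controls. CCl4 groups received carbon tetrachloride, a toxin that hepatocytes convert to free radicals, at 0.4 µl/g 2 times a week for 4 weeks (9 injections), and oil groups received the vehicle. Livers were taken 24 h after the last injection. The groups are therefore KO T3 CCl4, WT T3 CCl4, KO T3 oil, WT T3 oil, KO PBS CCl4, WT PBS CCl4, KO PBS oil and WT PBS oil. Age, strain and the exact knockout allele are not stated in the labels. The samples are whole liver, so fewer cells of a type and less RNA per cell cannot be told apart.

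Library totals lay between 16985162 and 26118055 counts. Thrb kept reads in the KO livers (15.9 to 42.6 counts per 1000000 counts, CPM, against 10.7 to 66.4 CPM in WT livers), and its ranges overlapped between genotypes in the PBS CCl4 livers, so its read count alone does not check the label. Dio1, a direct T3 target, stood at 77.3 to 135 CPM in the KO T3 livers and 844 to 1185 CPM in the WT T3 livers, against 3.95 to 20.0 CPM in the KO PBS livers and 0.295 to 1.00 CPM in the WT PBS livers, so hormone status matched every label. WT PBS CCl4 replicate 2 and KO PBS CCl4 replicate 3 lay farthest from the other livers of their groups across all tested genes. Hepatocyte markers (6 genes, among them Alb, Apoa1 and Cps1) were present throughout, at a summed 45380 to 169500 CPM.

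ATF4 binds DNA with C/EBP-family partners at composite sites known as C/EBP-ATF response elements, whose core reads TGATGNAA (N is any base). In 300-base RefSeq promoters (250 bases before to 50 bases after the start, GRCm38.p6), all 10 genes matched an entry. This core stood on either strand in 6 of the 10 genes (6 of their 11 promoters), against 3.97% of 32851 promoters. The genes were listed as members of this pathway, so a share above that background is no independent evidence. The 30 bases around each match are shown because these genes, which share the letters, moved differently with injury and hormone. Each is written 5′ to 3′ along the gene's own strand, with the match in capitals.
Atf3 (chr1:191183425-191183454, reverse strand): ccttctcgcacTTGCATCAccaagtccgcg
Trib3 (chr2:152344028-152344057, reverse strand): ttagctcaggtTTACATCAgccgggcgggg
Chac1 (chr2:119351038-119351067, forward strand): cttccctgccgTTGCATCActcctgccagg
Asns (chr6:7693214-7693243, reverse strand): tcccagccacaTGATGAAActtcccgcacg
Fgf21 (chr7:45615611-45615640, reverse strand): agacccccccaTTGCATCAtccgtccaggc
Nupr1 (chr7:126625562-126625591, reverse strand): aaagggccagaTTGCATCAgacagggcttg
The match read TTGCATCA, the core on the opposite strand, in Atf3, Chac1, Fgf21 and Nupr1, TTACATCA in Trib3 and TGATGAAA in Asns. It began 110 bases before the start in Atf3 and in Nupr1, 193 in Chac1, 139 in Fgf21 and 23 in Asns. In Trib3 it began just after the start. The promoter windows of Atf4, Ddit3, Sesn2 and Psat1 did not hold these letters. The endoplasmic reticulum stress element (ERSE), searched in its exact consensus on both strands, was in none of the 10 genes' promoters and in 0.119% of all promoters. A match is a description of the letters, not of binding.

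All 10 genes passed the filter on low counts, with 15599 genes tested. Differences below are log2 fold changes from edgeR's quasi-likelihood test, with p-values adjusted by Benjamini-Hochberg over all tested genes and called at 0.05. The ± value after each is an approximate standard error. The test does not report it: it is the absolute log2 fold change divided by the square root of the test's F statistic. Each group of 4 enters several comparisons, so comparisons that share a group are not independent.

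**Figure D1:**
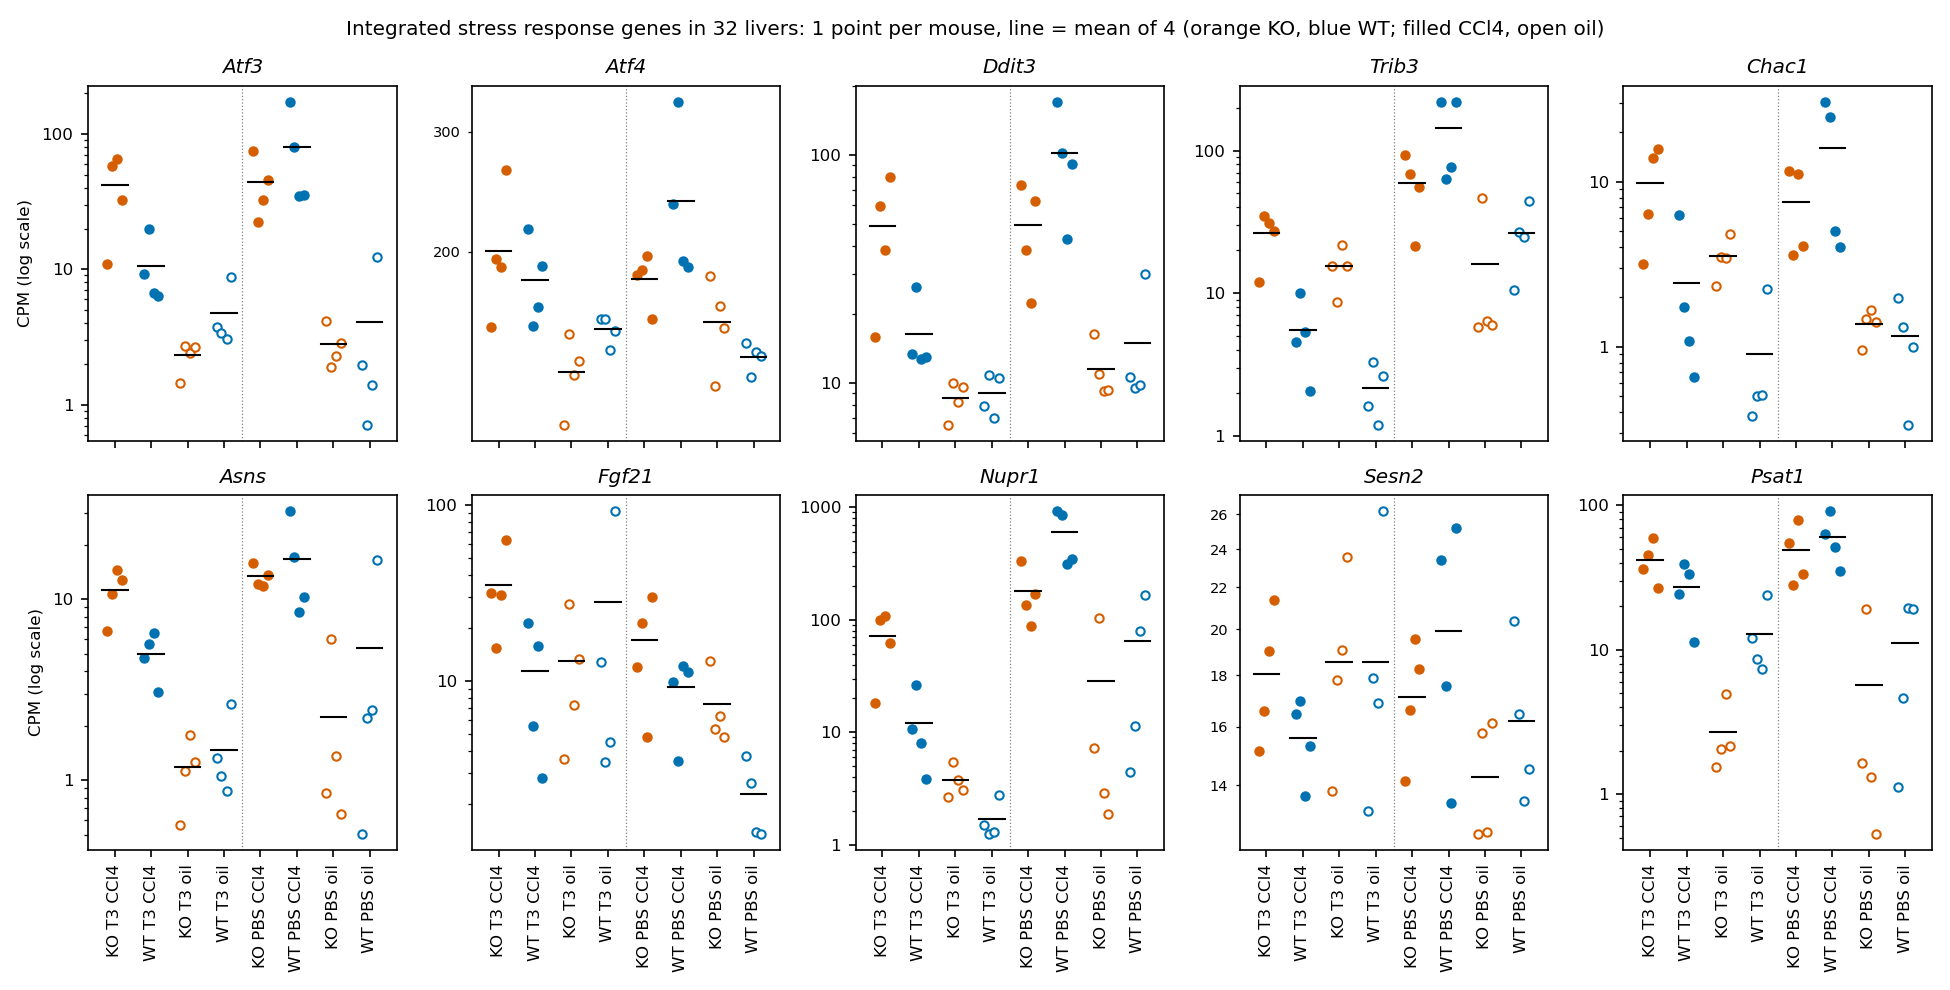
Levels of the 10 genes in CPM (log axis, its range set for each gene) in each of the 32 livers, by group; each point is 1 mouse and each line the mean of 4. Nupr1 spans from 1.26 CPM to 922 CPM, while Sesn2 stays between 12.5 and 26.2 CPM.

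CCl4 raised most of the genes in 3 of the 4 settings. In KO T3 livers 6 of the 10 rose and none fell, where 39.6% of all tested genes were called (19.7% higher), and the genes' median log2 fold change was 1.98 against -0.0035 over all tested genes. In WT T3 livers edgeR called none of the 10, where 3.4% of all genes were called. There, Asns and Nupr1 had an unadjusted p under 0.05, DESeq2 called 1 (Nupr1), and the median was 1.10 against -0.0069. In KO PBS livers 7 rose (31.1% of all genes called, 17.8% higher; median 2.28 against 0.04), and in WT PBS livers 8 rose (46.2% called, 24.6% higher; median 2.44 against 0.04). In KO T3, KO PBS and WT PBS livers the share of the 10 genes that rose was above the share of all genes called higher, whereas 0 of 10 in WT T3 livers is near its background. The CCl4 and oil livers did not overlap, with CCl4 higher, for 6 genes in KO T3 (19.9% of all genes), 3 in WT T3 (6.81%), 5 in KO PBS (16.2%) and 7 in WT PBS livers (16.6%). Leaving out 1 library moved 2 of these counts over all genes by more than 1.5 times. In KO PBS livers 4854 genes were called with all libraries and 2987 without KO PBS CCl4 replicate 3. In WT T3 livers 531 were called with all libraries, 347 without WT T3 CCl4 replicate 1, 345 without WT T3 CCl4 replicate 2 and 328 without WT T3 oil replicate 4.

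T3 over PBS was called for none of the 10 genes in KO CCl4 livers, by edgeR or DESeq2, and none had an unadjusted p under 0.05 (2.54% of all genes called; median -0.05 against -0.03). Without both outlying livers, WT PBS CCl4 replicate 2 and KO PBS CCl4 replicate 3, edgeR called 1163 genes in this comparison, and again none of the 10. With all libraries it called 396 genes, and the count depended on single livers: it was 176 and 165 without KO T3 CCl4 replicate 2 or 4, 189 and 237 without KO PBS CCl4 replicate 1 or 4, and 602 without WT PBS CCl4 replicate 2. None of the 10 genes was called in any of these fits. In WT CCl4 livers 6 genes fell with T3 and none rose (41.7% of all genes called, 21.7% lower; median -2.19 against -0.06). With oil, 1 gene fell with T3 in KO livers (18.7% called, 8.11% lower). In WT oil livers 1 rose and 3 fell (35.3% called, 19.0% higher and 16.2% lower), a share near that background.

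KO livers exceeded WT livers in 4 of the 10 genes under T3 and CCl4 (22.9% of all genes called, 10.4% higher; median 1.59 against 0.02). Under T3 and oil 1 gene was higher and 1 lower in KO livers (16.3% called, 7.14% higher and 9.21% lower). Without both outlying livers the count under T3 and CCl4 was 5, with Nupr1 added, and the counts in the other 11 differences between groups were as given. Under PBS none of the 10 was called with either injection. With CCl4, 2.25% of all genes were called, 3 of the 10 (Atf4, Ddit3 and Trib3) had an unadjusted p under 0.05 and DESeq2 called 0. That background was unstable. The 351 genes behind it became 120, 964 and 88 without KO PBS CCl4 replicate 2, 3 or 4, and 147, 70 and 1748 without WT PBS CCl4 replicate 1, 2 or 4; the count of the 10 genes stayed at 0 in each. With oil, 0.538% were called (84 genes, or 47 without WT PBS oil replicate 2), none of the 10 had an unadjusted p under 0.05 and DESeq2 called 0.

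**Figure D2:**
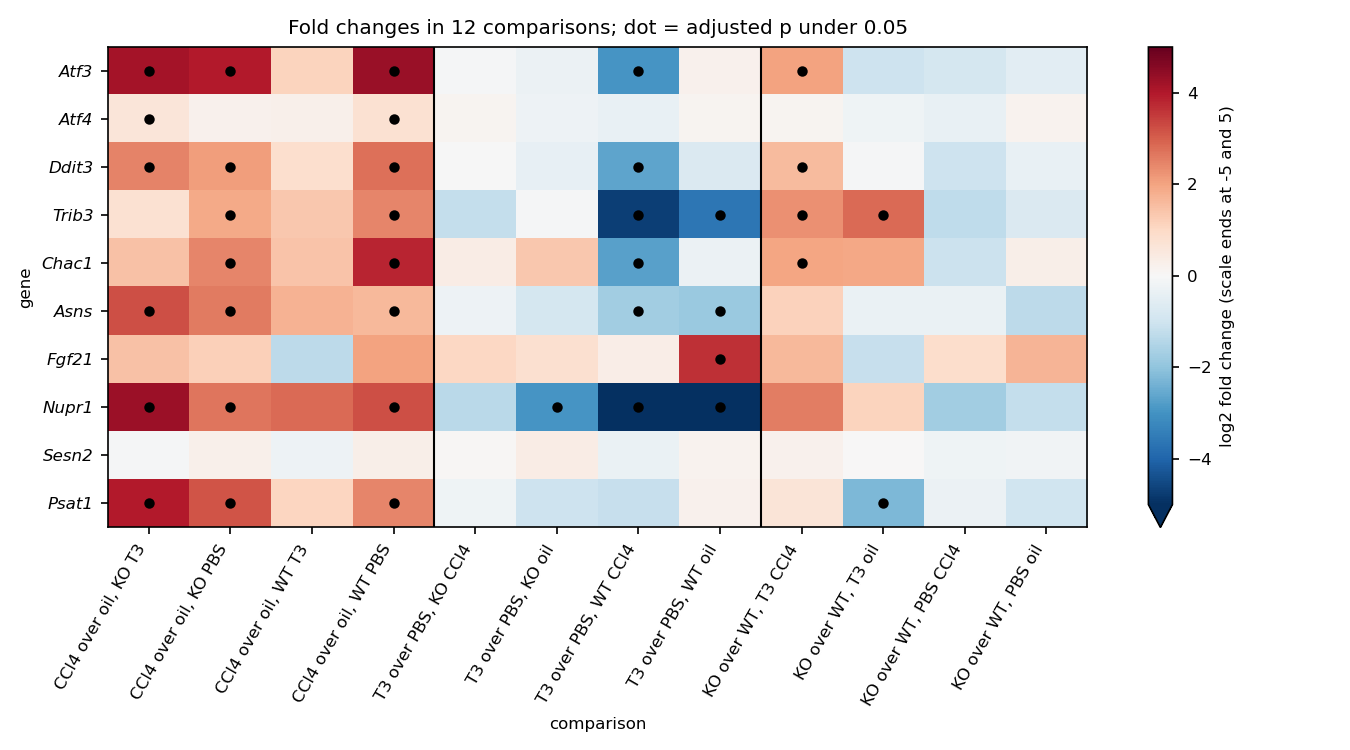
Log2 fold changes (colour) of the 10 genes (rows) in 12 comparisons (columns: CCl4 over oil, T3 over PBS, KO over WT); a black dot marks an adjusted p under 0.05. For CCl4 over oil the dots number 6 in KO T3, 0 in WT T3, 7 in KO PBS and 8 in WT PBS livers, and for T3 over PBS they number 0 in KO CCl4 livers and 6 in WT CCl4 livers.

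Markers of other cells moved with these groups. Monocyte-derived macrophage markers (6 genes) summed to 198 to 675 CPM in WT PBS CCl4 livers, against 40.4 to 147 CPM in WT PBS oil livers. The 5 neutrophil markers summed to 24.2 to 283 CPM there, against 5.68 to 15.97 CPM with oil. The 5 myofibroblast markers summed to 53.5 to 184 CPM against 31.1 to 57.3 CPM, and the 4 cholangiocyte markers summed to 24.9 to 58.2 CPM against 12.04 to 26.8 CPM. Hepatocyte markers summed to 45380 to 66110 CPM in WT PBS CCl4 livers, against 116800 to 168500 CPM in WT PBS oil livers. By single markers, CCl4 raised 4 of 6 macrophage markers in KO T3 livers, 1 in WT T3, 5 in KO PBS and 6 in WT PBS livers. It raised 4 of 5 myofibroblast markers in KO T3, 1 in WT T3, 5 in KO PBS and 5 in WT PBS livers. It lowered 3 of 6 hepatocyte markers in KO T3, 0 in WT T3, 4 in KO PBS and 6 in WT PBS livers, and 4 of 5 Kupffer cell markers in KO T3 livers. The hepatocyte sums of WT T3 oil livers, 70850 to 102200 CPM, already lay below those of all WT PBS oil livers. In WT oil livers T3 over PBS lowered 3 of 6 hepatocyte markers and raised 0. It raised 4 of 6 macrophage markers there and lowered 0. In WT CCl4 livers T3 over PBS ran opposite to CCl4 over oil in WT PBS livers for several lists. There, 4 of 6 hepatocyte markers were higher, and 3 of 6 macrophage, 3 of 5 myofibroblast and 4 of 4 cholangiocyte markers were lower. Kupffer cell markers rose with T3 in every setting, 5 of 5 in WT CCl4, WT oil and KO oil livers and 3 of 5 in KO CCl4 livers. CCl4 over oil in WT PBS livers raised 1 of these 5 and lowered 0. Under T3 and CCl4 the macrophage markers stood at 199 to 369 CPM in KO livers, against 84.7 to 177 CPM in WT livers. The neutrophil markers stood at 32.4 to 59.3 CPM against 17.2 to 22.4 CPM, and the cholangiocyte markers at 32.9 to 52.6 CPM against 8.43 to 21.6 CPM. These 3 sums did not overlap between genotypes. By single markers, 2 of 6 macrophage, 1 of 4 tested neutrophil and 2 of 4 cholangiocyte markers were called higher in KO livers. Lymphocyte sums did not overlap in the other direction, at 3.26 to 4.74 CPM in KO livers and 5.54 to 7.38 CPM in WT livers. Of the 4 lymphocyte markers 0 were called. The myofibroblast markers summed to 76.3 to 178 CPM in KO livers and 47.8 to 81.7 CPM in WT livers, and 4 of the 5 were called higher in KO livers (median log2 fold change 1.35). The hepatocyte sums overlapped (86610 to 111900 CPM in KO livers, 74660 to 111300 CPM in WT livers), yet 3 of the 6 hepatocyte markers were called lower in KO livers (median -1.005). Kupffer cell markers were lower in KO livers, at 242 to 396 CPM against 401 to 684 CPM in WT livers, and were 91.95 to 223 CPM in WT PBS CCl4 livers. Over the 8 groups endothelial markers spanned 95.1 to 220.5 CPM and lymphocyte markers 1.51 to 14.5 CPM. The only marker at 0 across a group was Ly6g (neutrophil), in WT T3 CCl4, KO PBS oil and WT PBS oil livers. The part of these cells in the results on the stress genes was not tested.

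Atf4 (ENSMUSG00000042406, chromosome 15, 80255184 to 80257541, forward strand, GRCm38), the transcription factor at the head of the pathway, is regulated mainly through its translation, which these data do not measure. Its mRNA was 155, 195, 189.9 and 263 CPM in KO T3 CCl4 livers, against 112, 152, 132 and 138 CPM in KO T3 oil livers, and 235, 332, 194 and 190.2 CPM in WT PBS CCl4 livers, against 147, 131, 142 and 141 CPM in WT PBS oil livers. In both settings every CCl4 liver exceeded every oil liver, and Atf4 rose by 0.59 ± 0.16 (adjusted p = 0.00483) in KO T3 mice and 0.76 ± 0.16 (adjusted p = 0.000421) in WT PBS mice. In WT T3 livers (156 to 216 CPM with CCl4, 143 to 159.5 CPM with oil) and KO PBS livers (159 to 197 CPM with CCl4, 127 to 184 CPM with oil) the ranges overlapped and no change was called (log2 fold changes 0.24 ± 0.16 and 0.21 ± 0.16). T3 over PBS in WT CCl4 livers gave -0.39 ± 0.16 (adjusted p = 0.0533). That difference was called without KO T3 CCl4 replicate 1 or 4, WT T3 CCl4 replicate 1, KO PBS CCl4 replicate 3 or WT PBS CCl4 replicate 3 or 4 (adjusted p between 0.02 and 0.0456).

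Atf3 (ENSMUSG00000026628, chromosome 1, 191170296 to 191218039, reverse strand) encodes a bZIP factor that ATF4 induces and that dimerises with other bZIP proteins. With T3 and CCl4 it stood at 10.9, 57.6, 65.6 and 32.5 CPM in KO livers, against 9.18, 19.8, 6.74 and 6.32 CPM in WT livers. With T3 and oil it stood at 1.45, 2.72, 2.41 and 2.68 CPM in KO livers, against 3.77, 3.37, 3.08 and 8.78 CPM in WT livers. KO T3 CCl4 replicates 2, 3 and 4 lay above every WT T3 CCl4 liver, and replicate 1 lay within the WT range. Under PBS and CCl4 the values were 74.8, 22.4, 32.6 and 45.5 CPM in KO livers, against 171, 79.7, 34.7 and 35.5 CPM in WT livers. Under PBS and oil they were 4.16, 1.91, 2.29 and 2.84 CPM in KO livers, against 1.97, 0.713, 1.39 and 12.2 CPM in WT livers. All injured PBS livers lay above all uninjured ones, and WT PBS oil replicate 4 stood above the other uninjured PBS livers.

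CCl4 raised Atf3 by 4.17 ± 0.72 (adjusted p = 7.25e-05) in KO T3 mice, 3.96 ± 0.70 (adjusted p = 0.000198) in KO PBS mice and 4.30 ± 0.70 (adjusted p = 2.72e-05) in WT PBS mice, with no overlap between CCl4 and oil livers in any of the 3 settings. In WT T3 mice CCl4 and oil livers overlapped and the difference was 1.13 ± 0.64 (adjusted p = 0.455). With CCl4, T3 over PBS was -0.07 ± 0.59 in KO livers, and in WT livers Atf3 fell, at -2.94 ± 0.65 (adjusted p = 0.000627), without overlap. KO over WT under T3 and CCl4 was 1.996 ± 0.63 (adjusted p = 0.0212). Without KO T3 CCl4 replicate 2 or 3 or WT T3 CCl4 replicate 1, 3 or 4 the adjusted p lay between 0.0515 and 0.078. Under T3 and oil all KO livers lay below all WT livers, at -1.05 ± 0.70 (adjusted p = 0.327). T3 over PBS in WT oil livers, 0.23 ± 0.67 (adjusted p = 0.822), became a call without WT PBS oil replicate 4 (adjusted p = 0.0414).

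Ddit3 (ENSMUSG00000025408, chromosome 10, 127290774 to 127296288, forward strand) encodes CHOP, the factor through which prolonged stress promotes cell death. Its exons overlap those of Mars by 68 bases and Gm4189 by 13 bases on the opposite strand, and those of a second, short Ddit3 entry on the same strand. The counting's strand setting is not known here, so reads there cannot be assigned with certainty. Its level under T3 and CCl4 was 15.9, 59.8, 38.2 and 80.2 CPM in KO livers, against 13.3, 26.4, 12.7 and 12.97 CPM in WT livers. Under PBS and CCl4 it was at 73.9, 38.4, 22.5 and 62.7 CPM in KO livers, against 170.4, 102, 42.96 and 91.6 CPM in WT livers. Of the 4 KO T3 CCl4 livers 3 exceeded every WT T3 CCl4 liver. With oil it was 6.56 to 9.997 CPM in KO T3, 6.99 to 10.8 CPM in WT T3 and 9.24 to 16.4 CPM in KO PBS livers, while WT PBS livers held 10.6, 9.49, 9.76 and 30.1 CPM, replicate 4 being the highest of all uninjured livers.

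CCl4 raised Ddit3 by 2.50 ± 0.46 (adjusted p = 0.000142) in KO T3, 2.11 ± 0.45 (adjusted p = 0.00108) in KO PBS and 2.76 ± 0.45 (adjusted p = 3.03e-05) in WT PBS mice. In WT T3 mice the injured livers also lay above all oil livers, yet the difference was not called, at 0.85 ± 0.44 (adjusted p = 0.39). With CCl4, T3 over PBS was -0.03 ± 0.42 in KO livers, and in WT livers Ddit3 fell, at -2.64 ± 0.45 (adjusted p = 3.67e-05), with no overlap. KO over WT under T3 and CCl4 was 1.57 ± 0.44 (adjusted p = 0.00965); of the 32 libraries left out singly, only KO T3 CCl4 replicate 4 ended that call (adjusted p = 0.0547).

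Trib3 (ENSMUSG00000032715, chromosome 2, 152337422 to 152344032, reverse strand), a pseudokinase that ATF4 and CHOP induce and that restrains ATF4 and AKT in turn, was lower with T3 in WT livers with and without injury. With T3 and oil it was at 15.5, 8.70, 21.9 and 15.6 CPM in KO livers, against 1.60, 3.27, 1.20 and 2.63 CPM in WT livers. With PBS and oil it was at 5.82, 46.1, 6.33 and 5.97 CPM in KO livers, against 10.6, 26.8, 24.96 and 43.98 CPM in WT livers. Every WT T3 oil liver was below every WT PBS oil liver and below every KO T3 oil liver. Injured T3 livers held 11.9, 34.8, 31.2 and 27.4 CPM in KO livers, against 4.57, 9.95, 5.36 and 2.07 CPM in WT livers. Injured PBS livers held 93.1, 68.8, 21.3 and 55.4 CPM in KO livers, against 218, 63.2, 77.2 and 219 CPM in WT livers. The WT T3 CCl4 livers lay below all livers of the other 3 CCl4 groups.

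In KO mice T3 over PBS was -1.18 ± 0.58 (adjusted p = 0.326) with CCl4 and -0.05 ± 0.59 (adjusted p = 0.973) with oil. In WT mice Trib3 fell with T3, at -4.72 ± 0.68 (adjusted p = 3.74e-06) with CCl4 and -3.61 ± 0.68 (adjusted p = 0.000117) with oil, in both without overlap. KO livers exceeded WT livers under T3 by 2.27 ± 0.63 (adjusted p = 0.00913) with CCl4 and 2.83 ± 0.67 (adjusted p = 0.00402) with oil, with no overlap in either. CCl4 raised it by 1.90 ± 0.60 (adjusted p = 0.0181) in KO PBS and 2.44 ± 0.60 (adjusted p = 0.0018) in WT PBS mice. The KO PBS call was lost without KO PBS CCl4 replicate 1 or KO PBS oil replicate 1, 3 or 4 (adjusted p between 0.0571 and 0.0674), and KO PBS oil replicate 2 was the high liver of its group.

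Chac1 (ENSMUSG00000027313, chromosome 2, 119351229 to 119354381, forward strand) encodes an enzyme that degrades glutathione. Injured T3 livers held 3.17, 6.35, 13.9 and 15.8 CPM in KO livers, against 6.29, 1.75, 1.09 and 0.654 CPM in WT livers. Injured PBS livers held 11.6, 3.61, 11.1 and 4.07 CPM in KO livers, against 30.4, 24.7, 5.003 and 3.999 CPM in WT livers. With oil it spanned 2.32 to 4.84 CPM in KO T3, 0.378 to 2.24 CPM in WT T3, 0.953 to 1.67 CPM in KO PBS and 0.337 to 1.97 CPM in WT PBS livers. Injured PBS livers lay above all uninjured PBS livers of their genotype, with rises of 2.46 ± 0.71 (adjusted p = 0.0107) in KO and 3.82 ± 0.74 (adjusted p = 0.000175) in WT mice. In KO T3 livers CCl4 over oil, 1.47 ± 0.66 (adjusted p = 0.076), became a call without KO T3 CCl4 replicate 1 (adjusted p = 0.0389). Every KO T3 oil liver lay above every KO PBS oil liver, although T3 over PBS was not called there.

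With CCl4, T3 over PBS was 0.36 ± 0.63 in KO livers, and in WT livers Chac1 fell, at -2.70 ± 0.68 (adjusted p = 0.00228), although WT T3 CCl4 replicate 1 lay within the WT PBS CCl4 range. KO over WT under T3 and CCl4 was 1.99 ± 0.67 (adjusted p = 0.0319), with overlap. The adjusted p lay between 0.0836 and 0.103 without KO T3 CCl4 replicate 3 or 4 or WT T3 CCl4 replicate 2, 3 or 4. Under T3 and oil all 4 KO livers lay above all WT livers, at 1.93 ± 0.74 (adjusted p = 0.0697). Without WT T3 oil replicate 4 the adjusted p was 0.0221, and without WT T3 CCl4 replicate 1 it was 0.0489.

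Asns (ENSMUSG00000029752, chromosome 6, 7675169 to 7693254, reverse strand) encodes asparagine synthetase, a standard read-out of amino acid shortage. Injured T3 livers held 6.65, 10.7, 14.5 and 12.8 CPM in KO livers, against 4.75, 5.64, 6.49 and 3.05 CPM in WT livers, and every KO liver exceeded every WT liver, although the difference was not called, at 1.16 ± 0.63 (adjusted p = 0.189). Injured PBS livers held 15.9, 12.2, 11.8 and 13.6 CPM in KO livers, against 30.6, 17.03, 8.47 and 10.3 CPM in WT livers. With oil it spanned 0.568 to 1.77 CPM in KO T3 and 0.874 to 2.63 CPM in WT T3 livers. Uninjured PBS livers held 0.853, 6.04, 1.36 and 0.650 CPM in KO livers, against 0.506, 2.19, 2.44 and 16.4 CPM in WT livers. WT PBS oil replicate 4 reached the range of the injured WT livers, and KO PBS oil replicate 2 stood above the other 3 of its group.

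CCl4 raised Asns by 3.23 ± 0.71 (adjusted p = 0.000874) in KO T3 and 2.61 ± 0.67 (adjusted p = 0.00504) in KO PBS mice, without overlap. In WT PBS mice the rise of 1.63 ± 0.63 (adjusted p = 0.0352) was lost without WT PBS CCl4 replicate 1 or 2 or WT PBS oil replicate 1, 2 or 3 (adjusted p between 0.0544 and 0.156). With T3, Asns fell in WT CCl4 livers, at -1.73 ± 0.63 (adjusted p = 0.0286), without overlap, and in WT oil livers, at -1.86 ± 0.68 (adjusted p = 0.0348). The CCl4 call was lost without WT T3 CCl4 replicate 1 or 4 or WT PBS CCl4 replicate 1 (adjusted p between 0.057 and 0.127). The oil call was lost without WT T3 oil replicate 1, 2 or 3 (between 0.0751 and 0.091) and rested on WT PBS oil replicate 4, without which the adjusted p was 0.812.

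Psat1 (ENSMUSG00000024640, chromosome 19, 15904678 to 15947337, reverse strand) encodes phosphoserine aminotransferase, an enzyme of serine synthesis. With T3 and CCl4 it was at 36.02, 45.4, 59.5 and 26.7 CPM in KO livers, against 24.4, 39.2, 33.2 and 11.3 CPM in WT livers. With PBS and CCl4 it was at 54.9, 28.3, 79.2 and 33.7 CPM in KO livers, against 63.2, 91.2, 51.5 and 35.3 CPM in WT livers. Uninjured T3 livers held 1.55, 2.07, 4.93 and 2.17 CPM in KO livers, against 11.99, 8.60, 7.32 and 23.8 CPM in WT livers, and every KO liver was below every WT liver. Uninjured PBS livers held 1.66, 19.3, 1.32 and 0.532 CPM in KO livers, against 1.12, 4.61, 19.3 and 19.2 CPM in WT livers, so that KO PBS oil replicate 2 and WT PBS oil replicates 3 and 4 stood above the other 5 livers.

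CCl4 raised Psat1 by 3.96 ± 0.80 (adjusted p = 0.000413) in KO T3, 3.14 ± 0.76 (adjusted p = 0.00322) in KO PBS and 2.44 ± 0.72 (adjusted p = 0.00718) in WT PBS mice, with no overlap in any of the 3. No T3 difference was called, WT CCl4 livers giving -1.16 ± 0.69 (adjusted p = 0.18). KO over WT under T3 and oil was -2.26 ± 0.78 (adjusted p = 0.0448), lower in KO, on the opposite side from Trib3 in the same livers. That call was lost without KO T3 oil replicate 1, 2 or 4, WT T3 oil replicate 1 or 4, KO T3 CCl4 replicate 2, WT T3 CCl4 replicate 3, KO PBS CCl4 replicate 1 or WT PBS CCl4 replicate 1, with adjusted p between 0.0502 and 0.146.

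Nupr1 (ENSMUSG00000030717, chromosome 7, 126623249 to 126630861, reverse strand), a small chromatin-associated protein induced by many stresses, had the widest range of the 10 genes. Its level under T3 and CCl4 was 18.2, 98.9, 109 and 62.7 CPM in KO livers, against 10.6, 26.3, 8.03 and 3.87 CPM in WT livers. Its level under PBS and CCl4 was 335, 135, 88.4 and 168 CPM in KO livers, against 922, 846, 309.6 and 348 CPM in WT livers. Every WT T3 CCl4 liver lay below every WT PBS CCl4 liver, and 3 of the 4 KO T3 CCl4 livers exceeded every WT T3 CCl4 liver. With oil it spanned 2.68 to 5.501 CPM in KO T3 and 1.26 to 2.77 CPM in WT T3 livers. Uninjured PBS livers held 7.22, 103, 2.90 and 1.89 CPM in KO livers, against 4.44, 11.3, 79.7 and 164 CPM in WT livers. KO PBS oil replicate 2 was within the range of the injured KO PBS livers, and the highest WT PBS oil liver was below all injured WT PBS livers.

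In KO mice T3 over PBS was -1.33 ± 0.90 (adjusted p = 0.517) with CCl4. With oil Nupr1 fell in KO mice, at -2.93 ± 1.00 (adjusted p = 0.0396), a call that rested on KO PBS oil replicate 2: without that liver the adjusted p was 0.95, and without any 1 of the 4 KO T3 oil livers it was between 0.0634 and 0.0893. In WT mice it fell with T3, at -5.64 ± 1.09 (adjusted p = 0.00016) with CCl4 and -5.24 ± 1.11 (adjusted p = 0.000473) with oil, in both without overlap.

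CCl4 raised Nupr1 by 4.27 ± 1.05 (adjusted p = 0.00222) in KO T3, 2.66 ± 0.95 (adjusted p = 0.0339) in KO PBS and 3.22 ± 0.97 (adjusted p = 0.00779) in WT PBS mice. The KO PBS call was lost without KO PBS CCl4 replicate 1 or KO PBS oil replicate 1, 3 or 4 (adjusted p between 0.0905 and 0.0931). In WT T3 mice every CCl4 liver exceeded every oil liver, at 2.82 ± 1.04 (adjusted p = 0.163). KO over WT under T3 and CCl4 was 2.57 ± 0.95 (adjusted p = 0.0511). That difference was called without KO T3 CCl4 replicate 1, WT T3 CCl4 replicate 2, KO PBS CCl4 replicate 3, WT PBS CCl4 replicate 2 or 4, any KO PBS oil liver, or WT PBS oil replicate 1, 2 or 4 (adjusted p between 0.0139 and 0.0498). Under PBS and oil, KO over WT became a call for Nupr1 and for Psat1 without KO PBS oil replicate 2 (adjusted p = 0.0344 for each).

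Fgf21 (ENSMUSG00000030827, chromosome 7, 45613886 to 45615490, reverse strand) encodes a hormone that the liver secretes under amino acid or endoplasmic reticulum stress and, through PPAR alpha, in fasting. With T3 and CCl4 it was at 31.5, 15.4, 30.9 and 63.5 CPM in KO livers, against 21.4, 5.53, 15.9 and 2.83 CPM in WT livers. Uninjured T3 livers held 3.61, 27.4, 7.29 and 13.4 CPM in KO livers, against 12.8, 3.47, 4.51 and 92.2 CPM in WT livers. WT T3 oil replicate 4 had the highest value of all 32 livers. With PBS and CCl4 it was at 12.03, 21.4, 4.799 and 30.1 CPM in KO livers, against 9.90, 3.505, 12.3 and 11.3 CPM in WT livers. Uninjured PBS livers held 13.04, 5.37, 6.33 and 4.79 CPM in KO livers, against 3.77, 2.63, 1.39 and 1.36 CPM in WT livers. All 4 KO PBS oil livers exceeded all WT PBS oil livers.

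Among the 10 genes only Fgf21 was called higher with T3, in WT oil livers, at 3.64 ± 0.88 (adjusted p = 0.00167). Without WT T3 oil replicate 4 the adjusted p was 0.0903. With CCl4, T3 over PBS was 1.05 ± 0.76 in KO livers and 0.31 ± 0.77 in WT livers. No CCl4 difference was called, WT T3 livers giving -1.30 ± 0.77 (adjusted p = 0.483) and WT PBS livers 2.03 ± 0.85 (adjusted p = 0.0521). The WT PBS difference was called without WT T3 CCl4 replicate 4, KO T3 oil replicate 1 or 2, WT T3 oil replicate 2, 3 or 4, KO PBS CCl4 replicate 3 or WT PBS CCl4 replicate 2 (adjusted p between 0.0164 and 0.0499), and DESeq2 called it (0.0335). Of 10 PPAR alpha target genes, the other known input to Fgf21, T3 raised 2 (Plin2, a lipid-droplet coat protein, and Vnn1) and lowered 3 in WT oil livers, close to the 19.0% of all genes higher and 16.2% lower there. CCl4 raised 1 (Plin2) and lowered 5 in WT PBS livers, beside 24.6% of all genes higher and 21.6% lower.

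Sesn2 (ENSMUSG00000028893, chromosome 4, 132492032 to 132510501, reverse strand) encodes a leucine sensor that restrains mTORC1 and is known as a target of both ATF4 and p53. It was called in none of the 18 comparisons and stayed between 12.5 and 26.2 CPM in the 32 livers. In WT PBS mice it was at 23.4, 17.6, 13.4 and 25.2 CPM in WT PBS CCl4 livers, against 20.4, 16.5, 13.5 and 14.5 CPM in WT PBS oil livers, with overlapping ranges and a difference of 0.30 ± 0.20 (adjusted p = 0.22). T3 over PBS in WT CCl4 livers, -0.35 ± 0.20 (adjusted p = 0.153), became a call without WT PBS CCl4 replicate 3 (adjusted p = 0.0399). Of 8 p53 target genes 6 rose with CCl4 in WT PBS livers, where 24.6% of all genes were higher and 21.6% lower, among them Bax at 1.47 ± 0.16 (adjusted p = 2.29e-07) and Zmat3 at 1.53 ± 0.19 (adjusted p = 7.54e-07). Of 9 tested relatives of the 10 genes (paralogs and receptors), none rose and 5 fell in that comparison, including Chac2 at -1.32 ± 0.29 (adjusted p = 0.000559) and Sesn3 at -1.07 ± 0.25 (adjusted p = 0.00117).

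Per kilobase of annotated exon, the scale on which levels of different genes can be set side by side, Nupr1 led in WT PBS CCl4 livers at 241 ± 128 CPM per kb (mean ± SD, n = 4), against 25.8 ± 29.6 CPM per kb in WT PBS oil livers. Atf4 came next in the injured livers at 101 ± 27.9 CPM per kb, followed by Trib3 at 67.8 ± 40.3 and Ddit3 at 59.4 ± 30.7 CPM per kb, and the Trib3 and Ddit3 means differed by less than either SD. In WT T3 CCl4 livers Atf4 led at 77.1 ± 11.4 CPM per kb, and Fgf21 averaged 12.01 ± 9.18, Ddit3 9.55 ± 3.91, Nupr1 4.85 ± 3.90 and Trib3 2.58 ± 1.55 CPM per kb. Asns averaged 0.431 to 6.07 CPM per kb over the 8 groups.

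Whether the T3 response differed between genotypes was tested directly as an interaction. With CCl4, the T3 response in KO minus that in WT livers was positive and called for 5 of the 10 genes (22.7% of all tested genes called, 10.3% positive): Nupr1 at 4.31 ± 1.32 (adjusted p = 0.0186), Trib3 at 3.54 ± 0.85 (adjusted p = 0.00341), Chac1 at 3.06 ± 0.92 (adjusted p = 0.0169), Atf3 at 2.87 ± 0.86 (adjusted p = 0.0169) and Ddit3 at 2.61 ± 0.61 (adjusted p = 0.00263). For each of these, T3 over PBS was not called in KO livers and was lower and called in WT livers. The Atf3 call was lost without WT PBS CCl4 replicate 1 (adjusted p = 0.0611). Asns, at 1.47 ± 0.87 (adjusted p = 0.228), and Psat1, at 0.93 ± 0.96 (adjusted p = 0.521), were not called. Atf4, at 0.53 ± 0.23 (adjusted p = 0.0936), became a call without KO T3 CCl4 replicate 1 (0.044) or WT PBS CCl4 replicate 4 (0.0403).

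With oil, 12.2% of all genes were called for the same interaction (5.58% positive) and 1 of the 10, Trib3, at 3.56 ± 0.89 (adjusted p = 0.00814). Nupr1, at an adjusted p of 0.304, became a call without KO PBS oil replicate 2 (adjusted p = 0.00582).

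**Figure D3:**
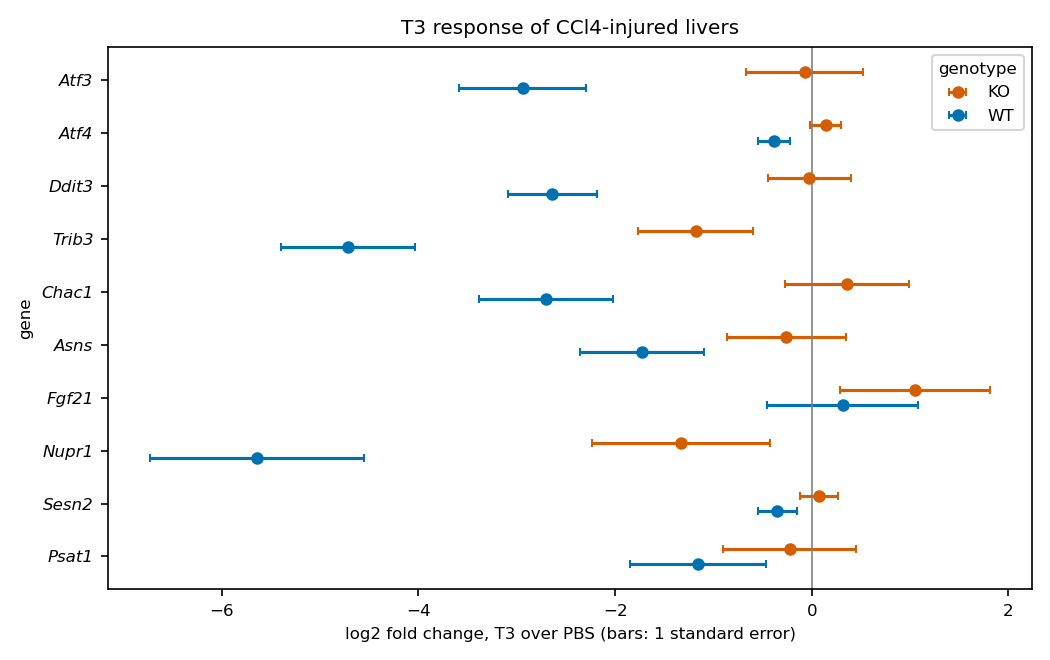
T3 over PBS in CCl4-injured livers for each of the 10 genes (log2 fold change, bars 1 approximate standard error) in KO and WT mice. In KO livers the values range from -1.33 (Nupr1) to 1.05 (Fgf21), while in WT livers 6 genes fell, from -1.73 (Asns) to -5.64 (Nupr1).

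The CCl4 response was compared in the same way. In KO mice its difference between hormone states, T3 minus PBS, was called for none of the 10 genes by edgeR or DESeq2, and none of them had an unadjusted p under 0.05 (3.71% of all genes called). Those 578 genes became 329 without KO T3 CCl4 replicate 4, 384 without KO T3 oil replicate 3, 343 without KO PBS CCl4 replicate 4, and 379 and 354 without KO PBS oil replicate 1 or 3. In WT mice the T3 minus PBS difference was negative and called for 3 of the 10 (23.9% of all genes called, 13.1% negative). It was -3.17 ± 0.91 (adjusted p = 0.0139) for Atf3, -1.91 ± 0.62 (adjusted p = 0.0257) for Ddit3 and -3.33 ± 1.15 (adjusted p = 0.0356) for Fgf21. For Fgf21 the CCl4 response itself was called in neither hormone state, its estimate being positive under PBS and negative under T3. Trib3 (-1.11 ± 0.89) and Nupr1 (-0.40 ± 1.37), which were lower with T3 in both injured and uninjured WT livers, were not called. The Ddit3 call was lost without WT T3 CCl4 replicate 3, WT T3 oil replicate 4, WT PBS CCl4 replicate 1 or WT PBS oil replicate 1, 2 or 3 (adjusted p between 0.051 and 0.0679). The Fgf21 call was lost without WT T3 CCl4 replicate 2 or 4, WT PBS CCl4 replicate 3 or WT PBS oil replicate 2, 3 or 4 (between 0.0526 and 0.0702) and without WT T3 oil replicate 4 (0.354). Chac1, at -2.40 ± 1.03 (adjusted p = 0.0867), became a call without WT T3 CCl4 replicate 1 (0.0175) or WT PBS CCl4 replicate 4 (0.0368), and Atf4, at -0.52 ± 0.23 (adjusted p = 0.0918), without WT PBS CCl4 replicate 4 (0.0393).

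Between genotypes, KO minus WT, the CCl4 response under T3 was larger for Atf3, at 3.04 ± 0.94 (adjusted p = 0.0308), where 13.5% of all genes were called (6.2% positive). That call was lost without KO T3 CCl4 replicate 2 or 3, WT T3 CCl4 replicate 3 or 4, KO T3 oil replicate 1 or 3, or WT T3 oil replicate 4 (adjusted p between 0.0523 and 0.0902). Psat1 gave 2.90 ± 1.03 (adjusted p = 0.059), Ddit3 1.65 ± 0.62 (adjusted p = 0.0737) and Fgf21 2.75 ± 1.09 (adjusted p = 0.087); DESeq2 called Psat1 (adjusted p = 0.0477) and Ddit3 (0.0411) as well as Atf3. Psat1 became a call in edgeR without WT PBS CCl4 replicate 2, KO PBS oil replicate 2 or 4 or WT PBS oil replicate 1 (between 0.0185 and 0.048), Ddit3 without KO T3 CCl4 replicate 1 or WT T3 CCl4 replicate 2 (0.0282 and 0.0459), and Fgf21 without WT T3 oil replicate 2 (0.0439). Under PBS none of the 10 genes was called by either tool; Atf4, at -0.55 ± 0.23, had an unadjusted p under 0.05, as did none of the other 9, and 0.0192% of all genes were called (3 genes, and 0 to 14 with 1 library left out). Over all genes the count under T3 was 2099, 1303 without KO T3 CCl4 replicate 3 and 1332 without WT T3 oil replicate 4.

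Wider lists of pathway genes, chosen with results of these data known and so no independent evidence, were counted in the same fits. CCl4 in WT PBS livers raised 9 of 9 tested amino acid transporters (7 without both outlying livers, WT PBS CCl4 replicate 2 and KO PBS CCl4 replicate 3) with a median log2 fold change of 2.14. The cystine importer Slc7a11 rose by 7.97 ± 0.74 (adjusted p = 2.82e-08), its partner chain Slc3a2 by 2.14 ± 0.21 (5.47e-08). Slc7a11 had very few counts in WT PBS oil livers, so the size of its fold change depends on how such counts are modelled. The glycine transporter Slc6a9 rose by 1.90 ± 0.21 (2.29e-07) and the cationic amino acid transporter Slc7a1 by 2.89 ± 0.34 (5.62e-07). Of 13 genes for tRNA charging and export 10 rose, with a median of 0.58, such as Wars at 1.63 ± 0.18 (2.86e-07) and Gars at 1.16 ± 0.14 (8.88e-07). Of 9 enzymes of serine, proline and one-carbon metabolism 6 rose, among them Mthfd2 by 3.14 ± 0.40 (1.18e-06), while Shmt1 (-1.52 ± 0.28, 0.000112) and Shmt2 (-1.36 ± 0.26, 0.000137), which convert serine to glycine, fell. Against these counts stand 24.6% of all genes higher and 21.6% lower.

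Of 10 genes listed here as eIF2 alpha regulators 6 rose in WT PBS livers with CCl4. The list holds kinases and phosphatase regulators, eIF2 alpha itself and related factors. The lowest adjusted p belonged to Ppp1r15a (GADD34, which ends the response by dephosphorylating eIF2 alpha) at 1.70 ± 0.28 (adjusted p = 3.55e-05). Next came Eif2ak3 (PERK, the endoplasmic reticulum kinase) at 1.51 ± 0.27 (6.81e-05), the only eIF2 alpha kinase called. Of 8 bZIP partners 5 rose and Cebpa fell, at -1.09 ± 0.27 (0.0018), but the 5 became 2 without both outlying livers. Among 16 other ATF4 and CHOP targets 8 rose, such as Sqstm1 at 1.65 ± 0.17 (1.14e-07), and 4 fell, including Cth at -2.34 ± 0.41 (5.93e-05) and Vldlr at -1.74 ± 0.32 (9.7e-05). Of 16 unfolded-protein-response genes (chaperones and other factors) 11 rose, with Hspa5 (BiP) at 1.88 ± 0.33 (5.85e-05).

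In KO CCl4 livers T3 over PBS was called for none of the transporters, tRNA genes, serine and one-carbon enzymes, eIF2 alpha regulators or bZIP partners (edgeR, 2.54% of all genes called), and 4 of the 16 other targets fell (Gpt2, Sqstm1, Vldlr and Cth). In WT CCl4 livers T3 lowered 6 of 9 amino acid transporters and raised 1 (Slc1a5), with Slc7a11 at -3.47 ± 0.53 (adjusted p = 9.3e-06); 4 fell without both outlying livers. It lowered 8 of 13 tRNA genes and raised Aars. It lowered 4 of 10 eIF2 alpha regulators, including Ppp1r15a at -1.95 ± 0.29 (4.72e-06), and raised 2. It lowered 6 of 16 other targets and raised 2. Of the serine and one-carbon enzymes 5 fell and 3 (Shmt1, Shmt2 and Psph) rose. The bZIP partners gave 2 higher and 1 lower. In this comparison 20.0% of all genes were higher and 21.7% lower, and the counts of the bZIP partners and of the other targets raised lay near or below those shares.

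**Figure D4:**
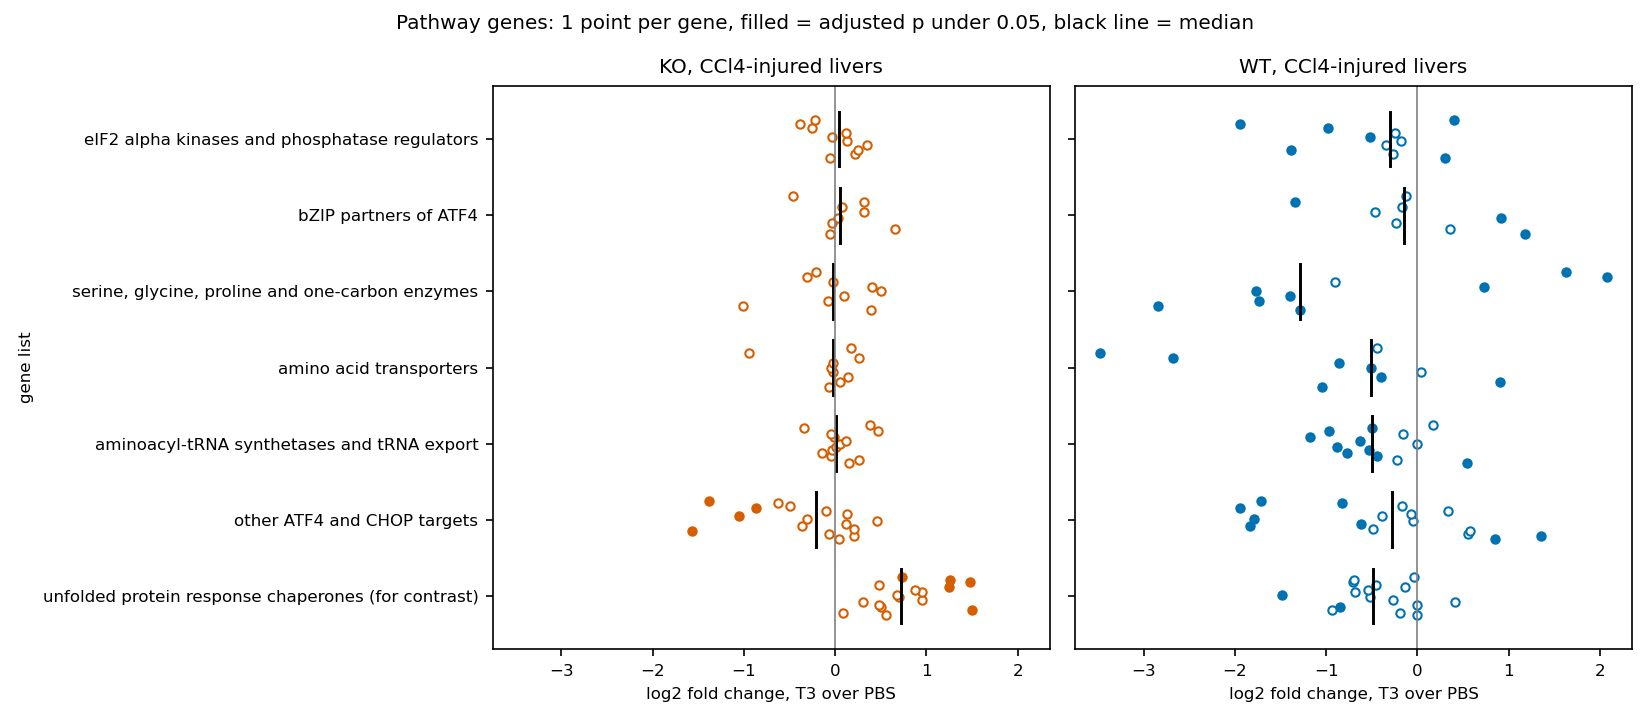
T3 over PBS in CCl4-injured livers for 7 lists of pathway genes, KO mice on the left and WT mice on the right; each point is 1 gene (log2 fold change), filled where the adjusted p is under 0.05, and the black line is the list's median. The median of the serine and one-carbon enzymes is -0.03 in KO livers and -1.29 in WT livers. The unfolded-protein-response genes, labelled chaperones in the figure, have a median of 0.72 in KO livers and -0.49 in WT livers.

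With CCl4, T3 raised 5 of the 16 unfolded-protein-response genes in KO livers (Pdia4 at 1.25 ± 0.23, and Xbp1, Syvn1, Sdf2l1 and Creld2), where 2.54% of all genes were called. In WT livers it lowered 2 of the 16 (Hspa5 and Dnajb9), a share below the 21.7% of all genes lower there. In KO over WT under T3 and CCl4, 12 of the 16 were higher, with Syvn1 at 1.71 ± 0.29 (adjusted p = 0.000113) and Pdia4 at 1.35 ± 0.23 (0.000116), beside 4 of the 10 stress genes and 5 of 13 tRNA genes. Of 9 transporters 3 were higher and Slc1a5 was lower, and of 9 serine and one-carbon enzymes 4 were higher while Shmt1 and Shmt2 were lower. Of 10 eIF2 alpha regulators 3 were higher and 2 lower, of 16 other targets 2 were higher and 3 lower, and of 8 bZIP partners 1 was higher and 1 lower. Over all genes 10.4% were higher and 12.5% lower in that comparison. No test of the difference between lists was made.

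The genes also varied between mice of the same group. The spread within groups (SD of log2 CPM) was 1.45 for Nupr1, 1.20 for Fgf21 and 1.17 for Psat1, larger than in 99.8%, 99.4% and 99.4% of tested genes. It was 0.22 for Atf4 and 0.28 for Sesn2, against a median of 0.32. In 10 of the 45 pairs the deviations from group means correlated across the 32 livers with an adjusted p under 0.05 (permutation within groups, 100000 resamples, two-sided, Benjamini-Hochberg over the 45 pairs), all positive; by rank correlation 12 pairs did. The strongest was Nupr1 with Psat1 (Pearson's r = 0.857, adjusted p = 0.00075; Spearman's rho = 0.747, adjusted p = 0.00198), and r was 0.772 without the 2 livers farthest from the median of Nupr1.

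Asns correlated with Nupr1 (r = 0.835, rho = 0.805, adjusted permutation p = 0.00045 for both; r = 0.779 without the 2 farthest livers). It also correlated with Psat1 (r = 0.813, adjusted permutation p = 0.000675; rho = 0.717, 0.00198; r = 0.777 without them). Atf3 correlated with Ddit3 (r = 0.787, 0.00112; rho = 0.78, 0.0009; r = 0.716 without them), as did Trib3 with Nupr1 (r = 0.726, 0.00382; rho = 0.594, 0.0134; r = 0.627 without them). Atf4, Fgf21, Sesn2 and Chac1 were in none of the 10 pairs. By rank, Chac1 correlated with Atf3 (rho = 0.587, adjusted permutation p = 0.026), and Atf4, Fgf21 and Sesn2 were in none of the 12 pairs. The r values of Atf4 against Nupr1, Asns and Psat1 were -0.0217, 0.000983 and -0.122. These correlations compare mice treated alike and say nothing about the treatments.

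**Figure D5:**
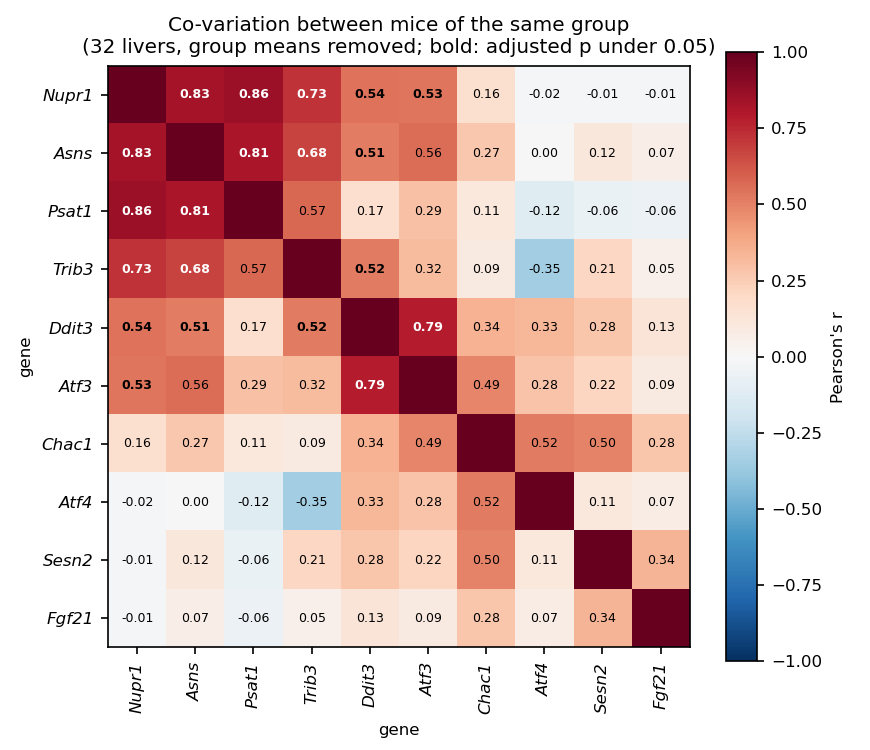
Pearson's r between the 10 genes for deviations of log2 CPM from the group mean, over 32 livers; bold values have an adjusted permutation p under 0.05. The highest values join Nupr1, Asns and Psat1 (0.81 to 0.86), followed by Atf3 with Ddit3 at 0.79, and Trib3 with Psat1 (0.575) is not bold; no pair with Atf4, Chac1, Sesn2 or Fgf21 is bold.

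For the 4 genes with the widest range of group means, the genes of most similar pattern over the 8 group means were listed as a description. With 8 points, many genes have a high r. Nupr1 was most like Anxa7 (r = 0.993), Btf3 (0.990) and Eef1b2 (0.988). Trib3 was most like Cnksr1 (0.992), Obsl1 (0.990) and Cldn7 (0.989). Atf3 was most like Ehd1 (0.996), Tnfrsf12a (0.996) and Trmt61a (0.993). Psat1 was most like Sirpb1c (0.983), Arhgap44 (0.972) and Myo7b (0.970).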

How the data were processed

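Liver RNA from 32 mice was sequenced (TruSeq RNA v2 or Stranded mRNA libraries, per the labels; which library used which kit is not stated). The submitters' processing notes name STAR 2.7.9a and the GRCm38 genome, with Trim Galore and cutadapt for trimming and FastQC 0.11.5 for quality. No source used here names the counter or its strand setting. The deposited table holds raw counts per Ensembl gene. Symbols, coordinates and exon lengths came from GENCODE vM21, promoters from RefSeq (GRCm38.p6).

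The quasi-likelihood test of edgeR 4.0.16 was run on the deposited counts of all 32 libraries, with 1 mean per group and TMM scaling. Genes were kept at a minimum count of 10 and a total of 15 (filterByExpr), which left 15599 genes. Fold changes are the first-named group over the second, and Benjamini-Hochberg adjustment ran over all tested genes. Libraries held 16985162 to 26118055 counts, and each mean rests on 4 mice. The p-values set each difference against a spread between mice within groups, estimated from all 32 libraries and moderated across genes. CPM values use TMM-scaled library sizes.

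Alternatives were DESeq2 (1.42.0) and its size factors, total-count scaling, no filter, a replicate block, fits of only the groups compared, each library left out in turn and, chosen after seeing the data, both outlying libraries left out. Replicate numbers did not pair the samples. Covariation used numpy 2.4.6 and scipy 1.17.1. The fit was tested on simulated counts, for a single comparison. The simulation gave every gene the same spread setting and held no outlying livers, so it does not cover genes that vary widely within groups. The 10 genes, the pathway lists and the cell type markers were chosen with earlier results of these data known. All 10 genes are named; a pathway list may contribute its 4 called genes of lowest adjusted p and 3 called in the minority direction, or all called genes if there are at most 5.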

Additional observations from a re-analysis of the deposited data

Results flagged for a closer look

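In 12 of 80 sets of 4 mice (10 genes in 8 groups), the highest liver lay farther from the other 3 than Dixon's 95% critical value allows. The ratio was taken on CPM, whose right skew favours high values, so the rate of about 1 in 20 that chance gives for normal values does not apply here. On log2 CPM, a scale chosen after seeing the data, 5 sets passed. They were 4 of the same 12 (Ddit3 in WT T3 CCl4 replicate 2 and in WT PBS oil replicate 4, Trib3 in KO PBS oil replicate 2 and Chac1 in WT T3 oil replicate 4) and 1 low value, Fgf21 in WT PBS CCl4 replicate 2 (3.505 CPM). On CPM all 12 were high, and 11 were in oil livers. WT T3 oil replicate 4 was the high liver for Atf3 (8.78 CPM), Chac1 (2.24 CPM), Fgf21 (92.2 CPM) and Nupr1 (2.77 CPM). KO PBS oil replicate 2 was the high liver for Trib3 (46.1 CPM), Asns (6.04 CPM), Nupr1 (103 CPM) and Psat1 (19.3 CPM). WT PBS oil replicate 4 was the high liver for Atf3 (12.2 CPM), Ddit3 (30.1 CPM) and Asns (16.4 CPM), and WT T3 CCl4 replicate 2 for Ddit3 (26.4 CPM). None of the 4 livers high on CPM is 1 of the 2 that stood apart across all genes.

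A response differed between groups by its interaction term (edgeR) in 10 of 60 tests. Over all genes, the T3 response, KO minus WT, was called for 12.2% with oil and 22.7% with CCl4. The CCl4 response, KO minus WT, was called for 13.5% of all genes under T3 and 0.0192% under PBS. Its T3 minus PBS difference was called for 23.9% in WT and 3.71% in KO mice. The T3 response, KO minus WT, differed with oil for Trib3 (3.56) and with CCl4 for Nupr1 (4.31), Trib3 (3.54), Chac1 (3.06), Atf3 (2.87) and Ddit3 (2.61), all log2 differences. The CCl4 response, KO minus WT, differed under T3 for Atf3 (3.04). The CCl4 response in WT mice, T3 minus PBS, differed for Fgf21 (-3.33), Atf3 (-3.17) and Ddit3 (-1.91).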

How the results depend on the processing

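Of 126 counts of called genes under the fixed alternatives and without both outlying livers, 117 were within 1.5 times the main count. No called gene changed sign. A count can stay near the main count while the genes behind it change. Over all comparisons, the fit of only the groups compared lost 7 calls and gained 13. Total counts lost 1 and gained 13, the replicate block lost 3 and gained 1, and DESeq2 lost 0 and gained 7. The fit without both outlying livers lost 1 and gained 3. With no filter 0 were lost and 2 gained, and DESeq2 size factors changed 0. For CCl4 over oil in WT T3 livers DESeq2 called 1 and the fit of only those groups 2, against 0. For KO over WT under T3 and oil the fit of only those groups called 4, against 2. For the CCl4 response, KO minus WT, under T3, total counts and DESeq2 each called 3, the fit of only those groups 4 and the fit without both outlying livers 2, against 1. For the CCl4 response, T3 minus PBS, in WT mice total counts called 6, against 3. The cause of these differences was not tested. Scaling by total counts moved the median of all genes by 0.43 for CCl4 over oil in WT PBS livers, 0.35 in KO PBS livers and -0.42 for T3 over PBS in WT CCl4 livers. It called 5467 genes higher and 866 lower in KO PBS livers (2770 and 2084 with TMM), 6941 and 1549 in WT PBS livers (3834 and 3368), and 1671 and 6558 for T3 over PBS in WT CCl4 livers (3116 and 3390).

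Same-numbered livers did not deviate together (mean r of -0.0211 to 0.014 by number, and 6 of 32 libraries correlated best with their own number), so the numbers share only a label. With the replicate block the count for T3 over PBS in KO oil livers was 0, against 1.

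Leaving out 1 library at a time, the count of called genes for CCl4 over oil was 6 to 7 in KO T3, 0 to 0 in WT T3, 5 to 7 in KO PBS and 7 to 9 in WT PBS livers. For T3 over PBS it was 0 to 0 in KO CCl4, 5 to 8 in WT CCl4, 0 to 1 in KO oil and 3 to 4 in WT oil livers. For KO over WT it was 2 to 5 under T3 and CCl4, 1 to 3 under T3 and oil, 0 to 0 under PBS and CCl4 and 0 to 2 under PBS and oil. For the T3 response, KO minus WT, it was 4 to 6 with CCl4 and 1 to 2 with oil. For the CCl4 response it was 0 to 2 (KO minus WT, T3), 0 to 0 (KO minus WT, PBS), 0 to 0 (T3 minus PBS, KO) and 1 to 5 (T3 minus PBS, WT).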
